A study of Mus musculus with 4 samples.

Results

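Meis1 and Meis2 are TALE homeodomain transcription factors of the proximal limb bud, and the sites they occupied in embryonic mouse limbs were examined around 4 genes of the Wnt pathway, Wnt5a, Wnt2, Dact1 and Lef1. A site was included when its summit, the position of its highest signal, lay in a fixed window of mm9 around the gene, without regard to its height. The windows ran from 29.0 to 29.7 Mb on chromosome 14 for Wnt5a, from 17.7 to 18.3 Mb on chromosome 6 for Wnt2, from 72.1 to 72.8 Mb on chromosome 12 for Dact1 and from 130.3 to 131.2 Mb on chromosome 3 for Lef1. Summits that shared the same limits were counted as 1 region, with the highest fold and the lowest q of its summits. In forelimbs (FLs) the windows held 47 of 21338 Meis regions, with 52 of 22906 summits, and in hindlimbs (HLs) they held 40 of 16987 regions, with 44 of 17810 summits.

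FL buds and HL buds came from wild-type C57BL/6 embryos at E10.5 (36 somites), with about 500 buds pooled for each limb, and neither group carried a mutant allele or had been treated. Chromatin of each limb gave 1 library precipitated with antibodies against Meis1 and Meis2 together and 1 input library, so the sites of the proteins cannot be told apart. Each limb is thus a single sample, and FL and HL values are compared as descriptions of these libraries, with no test. In whole buds, binding in fewer cells and weaker binding in each cell cannot be told apart either, and the peak lists hold neither transcript levels by which the tissue could be checked nor read numbers.

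Wnt proteins are secreted signals that bind Frizzled receptors together with Lrp or Ror coreceptors. In the canonical branch they stabilise beta-catenin, which enters the nucleus and acts through Lef and Tcf factors, while the planar polarity branch steers cell shape and movement. In the limb bud, Wnt signals from the ectoderm act on the mesenchyme and help to maintain the apical ectodermal ridge. Wnt5a, a ligand of the non-canonical branch, is needed for limb outgrowth along the PD axis, and Wnt2 is a ligand best known from lung and placenta development. Dact1 is a cytoplasmic protein that binds Dishevelled and modulates both branches, and Lef1 is the nuclear partner of beta-catenin.

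No Meis region of either limb covered the window from 250 bp before to 50 bp after the start of any of the 4 genes. Regions at the 4 loci were at most 625 bp wide, so most of each locus likewise held no region. The sequences just before the starts are shown, and they were searched on both strands for TGACAG, the Meis binding hexamer. RefSeq promoters (GRCm38.p6) were at hand for Dact1, Lef1 and Wnt2. Each line gives the 250 bases before the start, 5′ to 3′ on the strand of the gene, with a match to the hexamer in capitals. Dact1 lies on the plus strand of chromosome 12 (71309634 to 71309883), the first of 4 entries of Lef1 on the plus strand of chromosome 3 (131110047 to 131110296) and Wnt2 on the minus strand of chromosome 6 (18030446 to 18030695).
Dact1: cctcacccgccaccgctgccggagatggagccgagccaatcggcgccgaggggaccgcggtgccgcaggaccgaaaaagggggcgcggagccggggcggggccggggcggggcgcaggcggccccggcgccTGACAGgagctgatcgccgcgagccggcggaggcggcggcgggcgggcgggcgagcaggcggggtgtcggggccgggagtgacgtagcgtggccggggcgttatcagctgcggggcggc
Lef1: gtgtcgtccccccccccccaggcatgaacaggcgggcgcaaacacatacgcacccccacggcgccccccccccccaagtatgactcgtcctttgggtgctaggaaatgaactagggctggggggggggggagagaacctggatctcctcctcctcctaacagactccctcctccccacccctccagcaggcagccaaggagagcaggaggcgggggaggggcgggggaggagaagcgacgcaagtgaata
Wnt2: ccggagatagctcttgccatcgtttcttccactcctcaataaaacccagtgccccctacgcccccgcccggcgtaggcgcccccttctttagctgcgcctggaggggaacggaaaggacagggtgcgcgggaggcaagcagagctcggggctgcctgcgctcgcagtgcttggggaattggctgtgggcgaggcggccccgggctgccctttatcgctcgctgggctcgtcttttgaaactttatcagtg
The Dact1 promoter held TGACAG at 71309765 to 71309770, 119 bases before the start, and the printed Lef1 and Wnt2 promoters held no match. Of all 32851 promoters of this length, 15.9% had the hexamer on either strand. The Hox-Pbx octamer TGATTNAT, which is found in 2.82% of promoters, and the T-box core AGGTGT, found in 11.8%, had no match in the printed sequences. Among the other Lef1 entries, which start further into the gene, 1 had the hexamer on the other strand 223 bases before its start, and another had the T-box core on the other strand at 2 places. A match describes these letters only. The sequences under the Meis regions themselves were not read, because the genome at hand was not the mm9 of the peak lists.

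The fold given for each region is the enrichment of ChIP signal over the input of the same limb, and q is the p-value of the peak caller adjusted for the whole list. Of the 47 FL regions, 12 had a q of at most 0.05 (25.5%, 95% Wilson interval 15.3 to 39.5%), against 17.4% of all FL regions. In HLs 6 of the 40 regions reached it (15.0%, 7.06 to 29.1%), against 10.1% of all HL regions. With the cutoff moved to a p of at most 0.0005, 23 FL regions (48.9%) and 20 HL regions (50.0%) passed, against 31.7% and 37.0% of the whole lists. A fold of at least 5 together with the q cutoff left 6 FL regions (12.8%) and 2 HL regions, against 7.67% and 4.67%. Both intervals of the q shares, which cover counting error only, include the share of the whole list. Overlap of at least 1 bp with a region of the other limb was found for 19 FL regions (40.4%, 27.6 to 54.7%), against 22.6% of all FL regions, and for 19 HL regions (47.5%, 32.9 to 62.5%), against 29.0% of all HL regions. These are the same 19 overlapping sites counted from either limb, and the loci were chosen with earlier results known, so the higher shares are a description of these sites only.

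Most sites at the 4 loci were weak. The median fold was 3.11 in FLs (2.17 to 7.12) and 2.93 in HLs (2.09 to 6.07), beside a median of 2.78 over all regions of either limb. A q of 1 was given to 24 of the 47 FL regions and 27 of the 40 HL regions, compared with 68.8% and 78.8% of the whole lists. The region of highest fold at the 4 loci ranked at position 533 of all FL regions in FLs and at position 400 of all HL regions in HLs, both at Wnt2. Regions that overlapped the other limb had a median fold of 3.96 in FLs and 3.46 in HLs, and those that did not had medians of 2.81 and 2.88. Regions with q at most 0.05 were wider than the rest, with a median of 290 bp against 147 bp in FLs.

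**Figure D1:**
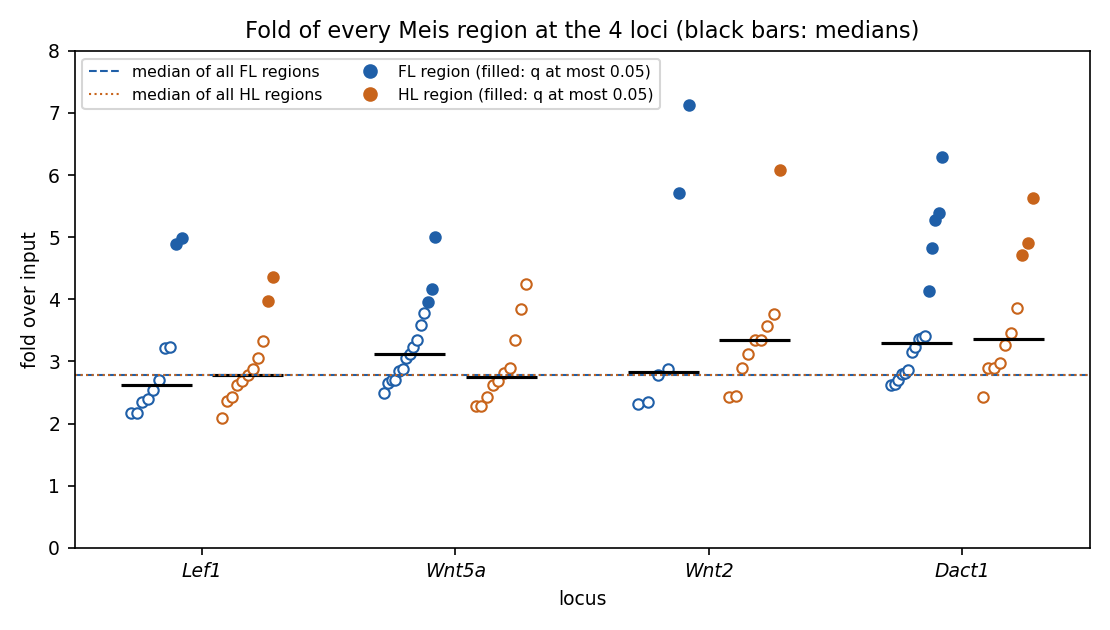
Fold over input (y axis) of each Meis region at the 4 loci (x axis), with FL regions in blue, HL regions in orange, filled points for q at most 0.05 and black bars for the median of each group. The highest folds were at Wnt2, 7.12 in FLs and 6.07 in HLs, and most points lay near the dashed and dotted lines at 2.78, the median of all FL and of all HL regions.

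Among the ligands, Wnt5a had 15 FL regions and 10 HL regions in its window, and 6 of each overlapped. The start of Wnt5a lies at 29317936 on chromosome 14 of mm9, within 2 bp, on the plus strand. No region lay closer than 34.2 kb to it in FLs or 53.8 kb in HLs, and the widest stretch without a site in either limb, 205 kb, spanned the start. All sites of Wnt5a were therefore distal to its promoter.

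The highest FL fold of the Wnt5a window was 5.01 (q = 0.000881), in a region from 29065981 to 29066392 that lay 252 kb upstream and had no HL region over it. It was also the highest fold of any FL region at the 4 loci without an HL counterpart. By the distance from the start in GRCm38, this place falls in Erc2, the neighbouring gene of a presynaptic scaffold protein, 18.5 kb from its nearest exon. At 323 kb downstream, the FL fold was 4.17 (q = 0.00113) over the interval from 29640307 to 29640804, and the HL fold was 4.25 (q = 0.0806) from 29640445 to 29640608. The HL value was the highest HL fold of the window, and its summit lay 21 bp from the FL summit. At 53.8 kb upstream, from 29263997 to 29264183, the FL fold was 3.96 (q = 0.0440) and the HL fold 2.81 (q = 1), again at a place within Erc2 by distance.

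These were the 3 FL regions with a q of at most 0.05 at Wnt5a, and no HL region of the window had such a q. The other overlapping sites were weaker in both limbs. At 301 kb upstream the folds were 3.77 in FLs (q = 0.0554) and 3.85 in HLs (q = 0.129). At 230, 183 and 322 kb from the start, the FL folds were 3.34, 3.24 and 3.11 and the HL folds 2.43, 2.68 and 2.29. The fold was thus higher in FLs at 4 of the 6 overlapping sites of Wnt5a.

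Wnt2 had the fewest FL regions, 6, of which 5 overlapped an HL region, and it had 9 HL regions. Its start lies at 17980585 on the minus strand of chromosome 6. At 213 kb downstream, from 17767019 to 17767316, the FL fold reached 7.12 (q = 1.35e-08), the highest of all regions at the 4 loci. The HL counterpart, from 17766951 to 17767248, reached 3.34 (q = 1), and the summits were 3 bp apart. By distance the place lies in St7, a neighbouring gene, 2.2 kb from its nearest exon. This was the largest difference of fold between the limbs at any of the loci, with a log2 ratio of FL to HL fold of 1.09.

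A contrasting site lay 66.4 kb upstream of Wnt2. There the FL fold was 5.71 (q = 1.15e-06) from 18046847 to 18047102, while the HL fold was 6.07 (q = 7.18e-06) from 18046807 to 18047042, the highest HL fold of the 4 loci. The summits were 6 bp apart, and the place falls by distance in Asz1, a germ cell gene, 6.5 kb from its nearest exon. The folds of the limbs were thus close at this upstream site and apart at the downstream site.

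Inside Wnt2 itself, which is 41.6 kb long in GRCm38, weak overlapping sites lay 31.8 and 32.6 kb downstream of the start. Their folds were 2.88 and 2.78 in FLs and 2.89 and 2.45 in HLs, each with a q of 1. Another weak site, at 101 kb, gave 2.32-fold enrichment in FLs and 3.12-fold in HLs. The highest HL region without an FL counterpart, at any of the 4 loci, lay 11.4 kb upstream of Wnt2 and had a fold of 3.77 (q = 0.386). A stretch of 206 kb without a site lay upstream of the gene, the widest between neighbouring sites of the same window.

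Dact1, which acts in the cytoplasm, had the most FL regions, while Lef1 had the most HL regions. The Lef1 window was the longest, at 0.9 Mb, and per Mb Lef1 had the fewest HL regions, 12.2 against 14.3 to 15.0 at the other genes. The Dact1 window held 16 FL regions, of which 5 had a q of at most 0.05. It held 10 HL regions, of which 3 had such a q, and 6 of each overlapped. The start of the gene is at 72410871 on the plus strand of chromosome 12. The nearest site of all 4 genes lay 2.18 kb upstream of it, from 72408533 to 72408814 in FLs, with a fold of 5.27 (q = 5.19e-05). The HL fold there was 3.27 (q = 1), from 72408536 to 72408730. Both regions ended upstream of the promoter printed above, so the hexamer of that promoter lay outside them.

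The highest FL fold of Dact1 was at 124 kb downstream of the start, from 72534257 to 72534787, at 6.29 (q = 1.44e-07) in FLs and 4.71 (q = 0.000376) in HLs. The highest HL fold was at 51.2 kb upstream, from 72359488 to 72359752 in FLs, where the folds were 5.39 (q = 3.74e-06) in FLs and 5.62 (q = 5.09e-06) in HLs. Next to the downstream site, at 120 kb, the FL fold was 4.13 (q = 0.00988) and the HL fold 4.90 (q = 0.00272). At these 3 places both limbs had a q of at most 0.05.

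Further downstream, at 234 kb, FLs reached 4.83 (q = 0.00355) from 72644729 to 72644960 and HLs 3.46 (q = 0.386), with summits 1 bp apart. The sixth overlapping site, 55.0 kb upstream, had a q above 0.05 in both limbs, with folds of 3.36 in FLs and 3.85 in HLs. Every downstream site of Dact1 with a low q fell by distance in a non-coding gene, Gm40438 or 4930404H11Rik, and none of the regions at Dact1 lay in a protein-coding gene. Without a counterpart, no region at Dact1 exceeded a fold of 3.41 in FLs or 2.97 in HLs.

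Lef1, the nuclear factor, had 10 FL regions and 11 HL regions, but only 2 of each overlapped. It starts at 130813389 on the plus strand of chromosome 3 and is 114 kb long in GRCm38. Both overlapping sites lay far upstream. At 243 kb, the FL region from 130569980 to 130570598 was the widest FL region of the 4 loci at 619 bp, and the HL region from 130570016 to 130570640 was 625 bp wide, with respective folds of 4.98 (q = 0.000321) and 4.36 (q = 0.000556). The HL region held 3 summits and the FL region 1, and the highest summits of the limbs were 167 bp apart. By distance the highest FL summit fell in the non-coding genes 2010110G14Rik and Gm36520, 0.0 kb from the nearest exon. The highest HL summit fell in 2010110G14Rik, 25.1 kb from its nearest exon.

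At 373 kb upstream of Lef1, the HL fold was 3.98 (q = 0.0475) from 130440549 to 130440933 and the FL fold 2.54 (q = 1). The highest HL summit lay 169 bp from the FL summit, while the other HL summit, of fold 2.02, lay 30 bp away. Inside the gene, 26.9 kb past the start, FLs alone had a region from 130840196 to 130840560, enriched 4.89-fold (q = 0.000751). It lay by distance 21.8 kb from the nearest exon of Lef1. The site nearest to the start was an FL region 3.93 kb upstream, with a fold of 2.40 (q = 1). The remaining regions at Lef1, none of which overlapped the other limb, had folds of at most 3.23 in FLs and 3.33 in HLs.

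**Figure D2:**
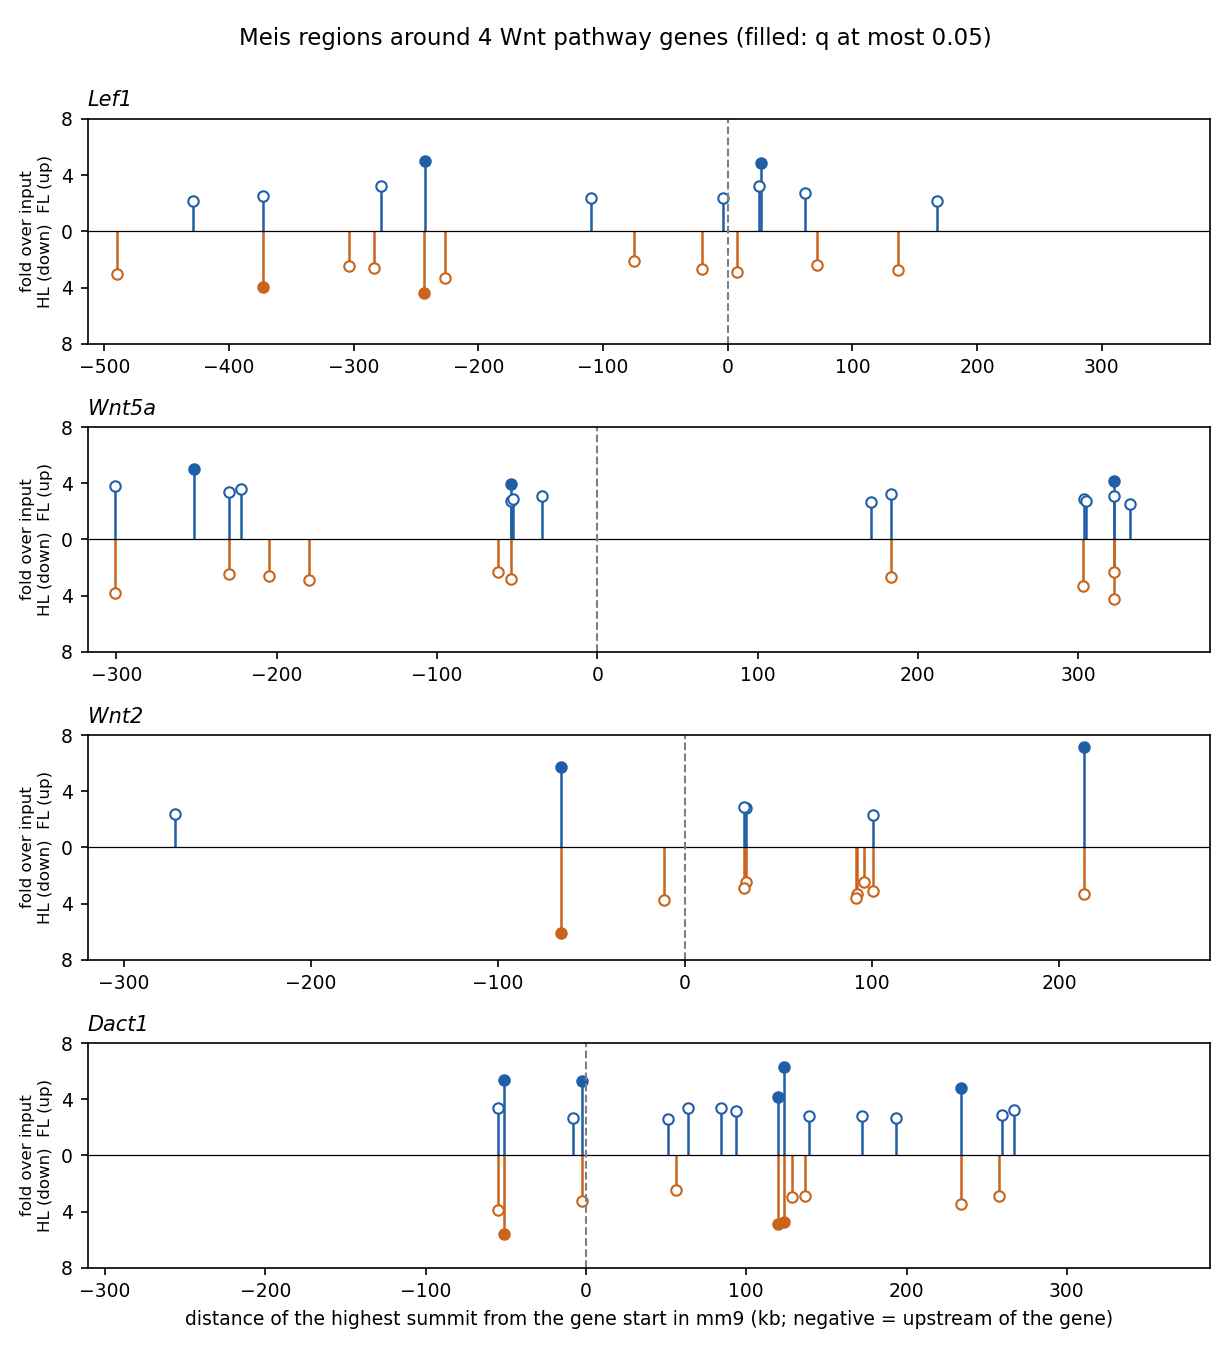
Fold over input (y axis, FLs upward in blue and HLs downward in orange) against the distance of each region from the gene start in kb (x axis, negative upstream), with a panel for each gene, a dashed line at the start and filled points for q at most 0.05. Around the start of Wnt5a a stretch of 205 kb held no site, whereas the nearest FL region of Dact1 lay 2.18 kb from its start.

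The limbs were then compared over the 19 overlapping sites. The fold was higher in FLs at 10 and in HLs at 9, whereas FLs had the higher fold in 62.1% of all 4813 overlapping pairs. The median log2 ratio of FL to HL fold was 0.18 (interval from order statistics -0.09 to 0.46, range -0.65 to 1.09), beside 0.17 over all pairs. The interval includes both 0 and the value over all pairs. It describes the spread among sites of 1 library per limb and cannot test a difference between the limbs. The largest ratio in favour of HLs, -0.65, was at the site 373 kb upstream of Lef1.

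Summits coincided closely at most of these sites. The highest summits of FLs and HLs were within 100 bp of each other at 16 of the 19 sites (84.2%), against 85.5% of all pairs, and within 20 bp at 9 of them. At Wnt2 and Dact1 all 11 sites had gaps of at most 90 bp, and the sites of Lef1 had gaps of 167 and 169 bp. With the nearest summits in place of the highest, 17 of the 19 sites had a gap of at most 100 bp.

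Both limbs had a q of at most 0.05 at 5 sites, FLs alone at 5, HLs alone at 1 and neither at 8. Over all 4813 overlapping pairs, these numbers were 1200, 1293, 363 and 1957. Pairs with such a q in neither limb were thus the most frequent, and those in HLs alone the rarest, here and in the whole lists. At these loci, the sites with a low q in both limbs included 3 of Dact1. The others were the site 66.4 kb upstream of Wnt2 and the site 243 kb upstream of Lef1. Of the 12 FL regions with such a q, 10 overlapped an HL region (67.0% of all such FL regions did), and the exceptions were the sites 252 kb upstream of Wnt5a and 26.9 kb into Lef1. All 6 HL regions with such a q overlapped an FL region, as did 89.3% of all such HL regions.

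**Figure D3:**
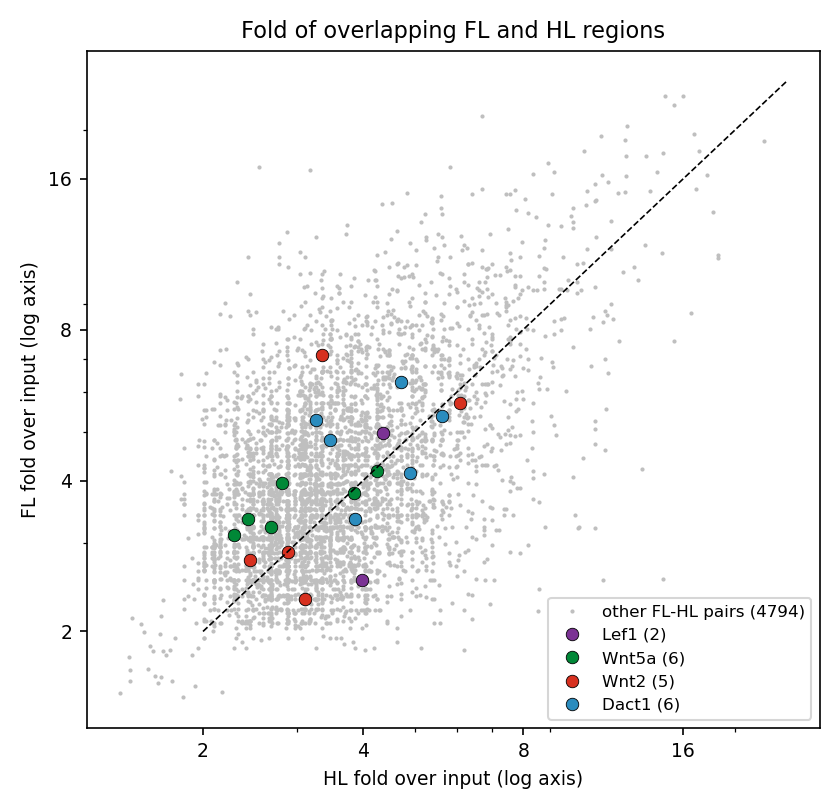
FL fold against HL fold (both log axes) of each pair of overlapping regions, with the 19 pairs at the 4 loci in colour, the other 4794 pairs in grey and a dashed line of equal fold. The coloured points lay on both sides of the line, 10 above and 9 below, and the Wnt2 site with folds of 7.12 and 3.34 was farthest from it.

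By position, the sites were mostly distal. Of the FL regions, 2 lay less than 5 kb from the start of their gene, 6 lay 5 to 50 kb away and 39 lay 50 to 500 kb away, and for HL regions these numbers were 1, 5 and 34. The size of the windows sets this spread in part, since most of each window lies over 50 kb from the start. Upstream and downstream numbers were 20 and 27 in FLs and 19 and 21 in HLs. When regions within 2 kb of each other were joined, 59 places resulted, of which 19 had sites of both limbs, 22 of FLs alone and 18 of HLs alone. These 19 places are not the 19 overlapping sites, because joining also grouped FL and HL regions that do not overlap. Dact1 had 7 such places and Wnt2 had 4, against 6 and 5 overlapping sites. The whole lists were not joined in this way, so these numbers have no genome-wide value beside them.

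Placed by distance in GRCm38, 17 of the 47 FL regions fell in a protein-coding gene, 14 in a non-coding gene only and 16 outside genes. For HL regions these numbers were 18, 10 and 12. A coding-gene exon lay within 1 kb of 1 FL region and 3 HL regions. Of these, 1 FL region and 2 HL regions lay in St7, in the Wnt2 window. Distances to the starts of Cftr, Rpl34, Cttnbp2, Frmd6 and Daam1 were the same in both builds to 0.1 kb. The start of St7 differed by more than 1 kb (336.6 and 337.7 kb), so the exon distances given for places in St7 are uncertain by about as much. No neighbour was at hand for such a check at Wnt5a.

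Density differed among the genes. The windows held 16.2 FL regions and 13.8 HL regions per Mb in all. The genome was cut into stretches of the length of each window, and at Dact1 8.01% of the stretches held at least as many FL regions and 14.2% at least as many HL regions. These shares were 9.29% and 14.2% at Wnt5a, 31.5% and 14.0% at Wnt2 and 27.6% and 17.7% at Lef1. All 4 loci exceeded the median stretch, which held 3 to 5 FL regions and 2 to 3 HL regions, but stretches as dense were common.

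**Figure D4:**
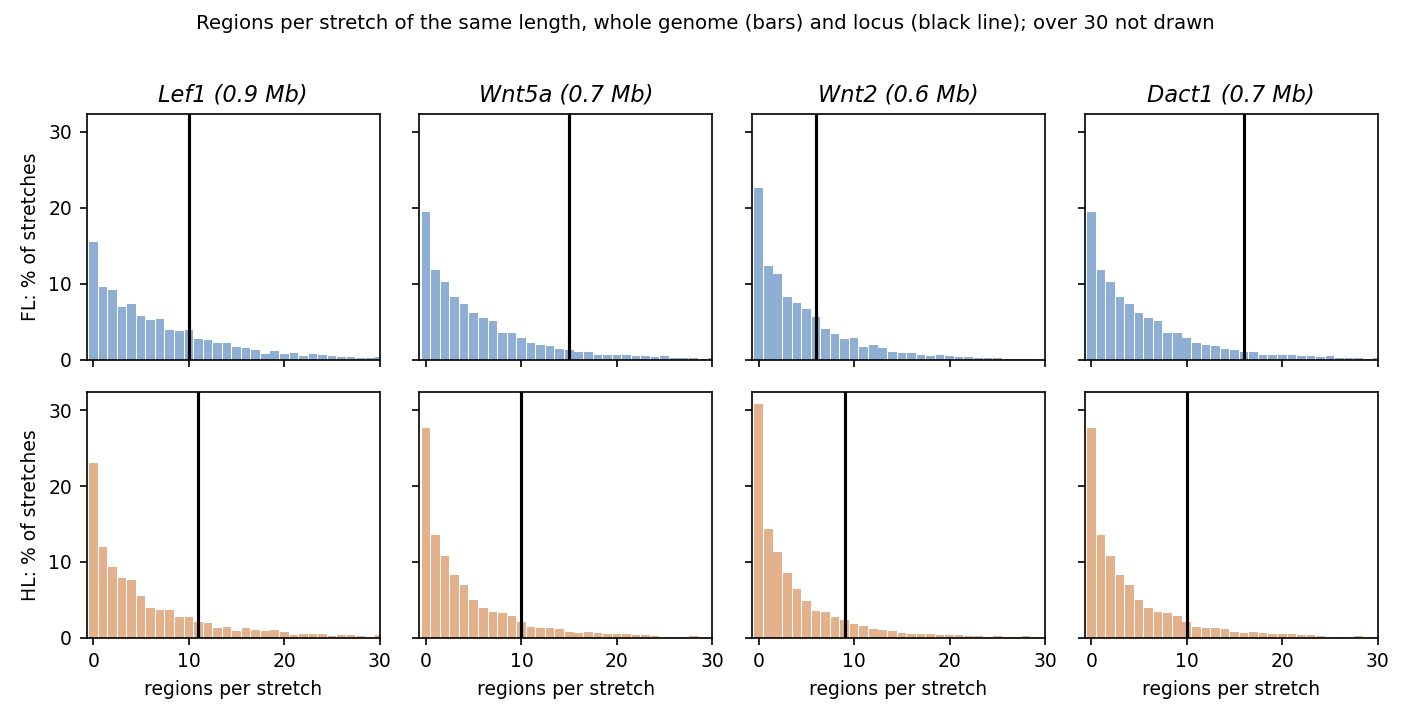
Share of genomic stretches in percent (y axis) by their number of Meis regions (x axis, up to 30), for stretches as long as each window, with FLs in the upper row, HLs in the lower row and a black line at the number found at the locus. The line for Dact1 in FLs, at 16 regions, is reached or passed by 8.01% of the stretches, and that for Wnt2 in FLs, at 6, by 31.5%.

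The limits of the windows left out some high sites. Just outside the Wnt5a window, 378 kb upstream, overlapping regions reached 6.24 (q = 9.12e-10) in FLs and 6.88 (q = 8.77e-10) in HLs, both above any fold inside that window. Beyond the Wnt2 window, 406 kb upstream, an HL fold of 5.39 (q = 0.000395) was listed. The last regions inside the 4 windows, 16 over both limbs and both sides, had a median fold of 3.29 (2.17 to 7.12), and the first 16 outside had a median of 3.29 (2.10 to 6.88).

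The pathway was described with a list of 91 genes by role, of which 28 had a start that could be placed in mm9. These 28 include the 4 genes examined above, which were chosen with earlier results known. The starts came from genes near sites common to FLs and HLs, so all placed genes were near such sites by construction. The distances behind these starts were at hand only in shortened form, so a gene without a start may still lie near such a site. Of the 28 genes, 19 had an FL region with q at most 0.05 within 100 kb of the start (67.9%, 49.3 to 82.1%), against 47.0% of all 1988 placed genes. In HLs 12 had such a region (42.9%, 26.5 to 60.9%), against 28.4%. All 4 examined genes are among the 19 in FLs, and Wnt2 and Dact1 are among the 12 in HLs. The shares are therefore not independent of these genes. How these shares compared with those of all placed genes depended on the window. Within 50 kb they were 42.9% (26.5 to 60.9%) against 29.1% in FLs and 10.7% (3.71 to 27.2%) against 16.9% in HLs, so the HL share was below that of all placed genes. Within 200 kb they were 89.3% (72.8 to 96.3%) against 66.6% in FLs and 64.3% (45.8 to 79.3%) against 44.7% in HLs.

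By role, 3 of the 5 placed ligands had an FL region with such a q, including Wnt5a and Wnt2. An HL region with such a q was found at 2 of them, including Wnt2. The other numbers for FLs and HLs were 2 and 1 of 3 for the R-spondin agonists, 4 and 3 of 5 for receptors, 3 and 2 of 6 for secreted inhibitors, 2 and 2 of 3 for cytoplasmic proteins and 5 and 2 of 6 for nuclear proteins. The 3 highest FL folds were all at receptors. Ror2, a receptor tyrosine kinase that binds Wnt5a, reached 12.1 (q = 6.91e-27) in FLs and 8.80 (q = 7.48e-13) in HLs. Its relative Ror1 reached 8.26 (q = 3e-13) in FLs and 5.38 (q = 6.41e-07) in HLs. At Lrp6, a coreceptor of the canonical branch, the folds were 8.17 (q = 2.48e-13) in FLs and 7.48 (q = 9.14e-10) in HLs. Within the same distance, the 4 genes examined above had lower FL folds than these receptors, 3.96 at Wnt5a, 5.71 at Wnt2, 5.39 at Dact1 and 4.89 at Lef1. Their HL folds were 2.81, 6.07, 5.62 and 2.88, so Wnt2 and Dact1 lay above Ror1 in HLs.

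**Figure D5:**
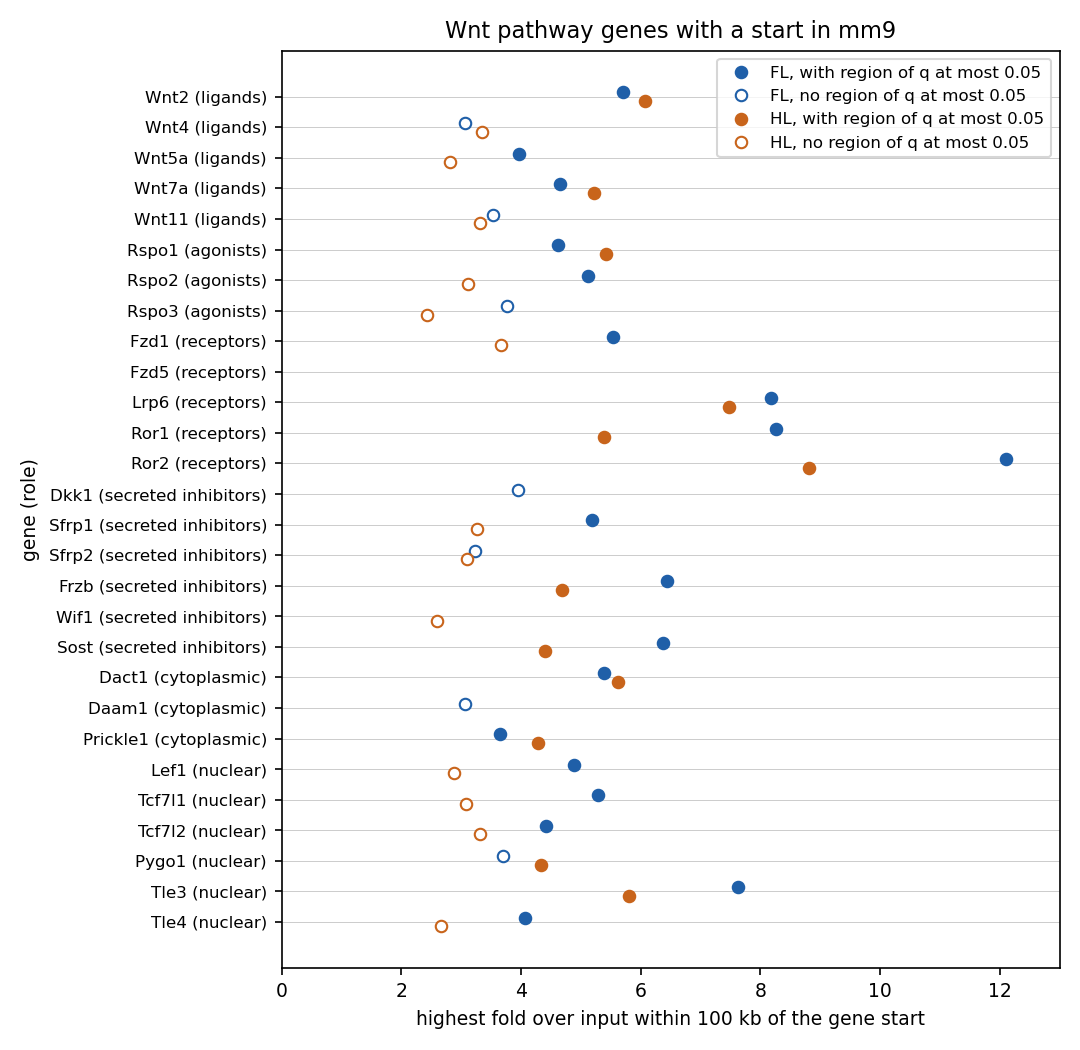
Highest fold over input within 100 kb of the start (x axis) for the 28 placed genes of the Wnt pathway (y axis, with role), FLs in blue and HLs in orange, filled where a region of that limb in the window had q at most 0.05. Ror2 had the highest fold of both limbs, 12.1 in FLs and 8.80 in HLs, and Fzd5 had no region of either limb.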

How the data were processed

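Peak lists of the FL and HL Meis ChIP libraries were analysed. Per the labels and the methods, the authors trimmed reads of 50 bp with cutadapt 1.3, aligned them to mm9 with BWA, marked duplicates and called peaks with MACS2, comparing ChIP with the matching input and listing several summits where a peak had them. The deposited fold enrichment is a ratio of ChIP to local background. The deposited −log10 p, −log10 q and score come from the authors' peak caller, and the deposited summit offsets are in bp. Both lists reach down to a loose cutoff (highest p 0.0220 in FLs and 0.0217 in HLs), so weak regions are included.

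Regions were paired with the overlapping region of highest fold in the other limb. Shares have 95% Wilson intervals. Gene starts in mm9 were computed from 3602 distances between peaks and genes in a table of the study, used only for positions, with strands from GENCODE M21. The positions were kept where distances gave the same start within 2 bp. No coordinate was converted between builds. The loci, the gene list and the naming rule were chosen with earlier results of these data known. Named are, for each gene and limb, the region of highest fold, those with q at most 0.05 and their counterparts, and the 3 pathway genes of highest FL fold. Other regions given were chosen after their values were seen. Overlap and start finding were tested on simulated data. Python 3.11.15, pandas 2.3.3, numpy 2.4.6, scipy 1.17.1 and matplotlib 3.10.9 were used. Alternatives changed the p, q or fold cutoff, the overlap required and the distance from the start.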

Additional observations from a re-analysis of the deposited data

How the results depend on the processing

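Of 39 values over the 4 loci recomputed under alternatives, 21 stayed within the limits of the reported value and 18 moved beyond them. Some of these values are counts of regions, which can only fall under a stricter cutoff or a shorter distance from the start. The tally is thus a description and does not measure how firm the results are. With p at most 0.0005 in both lists, 23 FL and 20 HL regions were left, with q at most 0.05 in both lists 12 and 6, and within 100 kb of the starts 19 and 17. With q at most 0.05 in both lists, the overlapping share was 83.3% of the 6 HL regions and 41.7% of the 12 FL regions. In the whole lists, 1200 overlapping pairs had such a q in both limbs, among 1721 HL and 3722 FL regions with such a q. When regions with q at most 0.05 were set against the whole other list, the share at the loci rose to 83.3% of FL and 100% of HL regions. Over all regions with such a q, these shares were 67.0% in FLs and 89.3% in HLs. A fold of at least 5 beside the q cutoff lowered the called share to 12.8% in FLs and 5.0% in HLs, and p at most 0.0005 in place of q raised it to 48.9% and 50.0%. The median log2 ratio turned to -0.028 (p at most 0.0005, 11 pairs), -0.061 (q at most 0.05, 5 pairs) and -0.0041 (within 100 kb, 7 pairs), so its sign depended on the regions admitted. In windows of 50 kb, chosen after seeing the data, 12 of the 28 pathway genes had an FL region of low q (42.9%, against 29.1% of all placed genes) and 3 an HL region (10.7%, against 16.9%), and in windows of 200 kb 25 (89.3%, against 66.6%) and 18 (64.3%, against 44.7%) had. The cause of these shifts, beyond the smaller numbers of regions that the stricter cutoffs leave, was not tested. No paired analysis was possible because each limb had a single ChIP library. The peak lists give no read numbers, and the depth of the libraries was not used here.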

Other observations

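Many folds at the 4 loci were shared exactly by other regions of the same list. Of the 47 FL regions, 43 had a fold listed for at least 10 FL regions (91.5%, against 84.0% of all FL regions), and of the 40 HL regions, 36 had such a fold (against 83.5% of all HL regions). The commonest HL fold, 2.89, was listed for 852 regions, 4 of them at these loci, and the commonest FL fold, 2.53, for 1427 regions, 0 of them at these loci. The FL region 26.9 kb into Lef1 shared its fold of 4.89 with 1 other region, and the HL region 51.2 kb upstream of Dact1 had a fold of its own, 5.62.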
